A study of Mus musculus with 6 samples.

Results

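Fatty acids enter β-oxidation and esterification only after they are joined to coenzyme A, and 2 groups of enzymes set the balance between free acids and acyl-CoA in liver. The 10 genes described here are 5 acyl-CoA synthetases (*Acsl1*, *Acsl3*, *Acsl4*, *Acsl5* and *Acss2*) and 5 acyl-CoA thioesterases (*Acot1*, *Acot2*, *Acot3*, *Acot4* and *Acot12*), chosen by gene symbol among the 45777 genes of the table. All 10 were found, and all 10 were among the 18636 genes that passed the filter on zero counts. Livers were taken from 3 mice with floxed alleles alone (WT; Pak4 flox/flox) and from 3 liver knockouts (LKO; Alb-Cre; Pak4 flox/flox), all C57BL/6, male, 8 weeks old and fasted for 24 h. The WT mice were littermates. Both genotypes carry the floxed *Pak4* alleles, and LKO mice also carry Cre under the albumin promoter, which acts in hepatocytes, so that the other cells of the liver keep *Pak4*. Each mouse gave 1 library. In whole liver RNA, fewer cells of a type and less RNA per cell cannot be told apart.

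Long-chain acyl-CoA synthetases of the ACSL family use ATP to join a fatty acid to coenzyme A, and the product can be oxidized in mitochondria or peroxisomes or built into triglycerides, phospholipids and cholesterol esters. ACSS2 does the same with acetate in the cytosol and nucleus. Thioesterases of the ACOT family do the reverse and release the free acid and coenzyme A. Many of these genes are known targets of the nuclear receptor PPARα, which is active in the fasted liver, whereas *Acss2* is a known target of the SREBP factors that drive the synthesis of fatty acids and cholesterol.

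Total counts were 45934632 to 59576437 per mouse. The factors of the TMM method, which scale libraries by the bulk of their genes, were 1.28 to 1.43 in WT and 0.639 to 0.816 in LKO mice, so the scale of the libraries moved with genotype. The median log2 fold change of LKO over WT across all genes tested was −0.04 after TMM, −0.90 with total counts and −0.79 on the log2(TPM + 1) scale. *Pak4* itself was counted 268, 210 and 271 times in the WT mice, against 85, 52 and 149 times in the LKO mice. After TMM it was at 3.59, 3.21 and 4.097 CPM (read counts on a common library scale) in WT, against 1.93, 1.49 and 3.22 CPM among LKO mice, so that LKO mouse 3 lay within the WT range, and its log2 fold change after TMM was −0.71 with an SE of 0.31 (edgeR, adjusted p = 0.10). Of 8 hepatocyte markers, all were tested, 3 were called higher and 1 lower in LKO mice, and their summed level was 33636 to 38660 CPM in WT and 88656 to 107248 CPM in LKO mice. Markers of sinusoidal endothelial cells were called higher for 5 of 7 genes (summed level 254 to 305 CPM in WT and 438 to 474 CPM in LKO mice), those of Kupffer cells for 4 of 8 with 1 lower (222 to 333 against 351 to 608 CPM), and those of hepatic stellate cells for 3 of 7 (236 to 279 against 643 to 962 CPM). Of the 6 cholangiocyte markers 4 were tested and 1 was lower (summed level 32.9 to 50.1 against 13.4 to 29.9 CPM), and the adipocyte markers *Adipoq*, *Plin1*, *Lep* and *Retn* did not pass the filter, while *Cfd* was lower (1.27 to 2.75 against 0.151 to 0.745 CPM), a call lost with any 1 mouse left out. Of 5 lymphocyte markers 1 was lower and none higher (summed level 42.9 to 63.7 against 29.4 to 43.2 CPM). Of 5 genes for enterocytes or pancreas, 2 were tested and *Fabp2* was higher, and the summed level was 58.8 to 88.2 against 205 to 449.8 CPM. For comparison, 19.6% of all genes tested were called higher and 20.5% lower after TMM, and 6.26% and 51.4% with total counts. The marker calls, too, moved with the scale. With total counts, 3 hepatocyte markers were higher and 3 lower, 2 and 2 of the endothelial, 2 and 3 of the Kupffer cell and 2 and 3 of the stellate cell markers. The summed TPM of the hepatocyte markers was 34863 to 39103 in WT and 24389 to 38467 in LKO mice, and *Alb* made up most of their CPM. The summed TPM was 153 to 212 against 101 to 155 for the endothelial, 196 to 314 against 131 to 205 for the Kupffer cell and 137 to 179 against 180 to 249 for the stellate cell markers. The part of these markers in the results for the synthetases and thioesterases was not tested.

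After TMM scaling, 4 of the 10 genes were lower in LKO than in WT mice and 0 were higher (edgeR's quasi-likelihood test, adjusted p-value under 0.05). Across all genes tested, 40.1% were called, 20.5% lower and 19.6% higher. The share of 4 in 10 called in either direction was thus that of the background, while all 4 were lower. Whether their direction differs from the background was not tested. The genes that fell were *Acss2*, *Acsl3*, *Acsl1* and *Acot3*. At an unadjusted p-value under 0.05, *Acot12* was the only further gene of the 10, with a higher level in LKO mice. Other tests gave 4 lower and 0 higher as well, against 22.3% and 20.8% of all genes with edgeR's exactTest and 21.2% and 20.9% with DESeq2. Other scales moved the whole table. With total counts, 7 of the 10 were called lower and 0 higher, against 51.4% and 6.26% of all genes, and with limma on log2(TPM + 1) 9 and 0, against 71.5% and 2.43%.

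The regions before the start sites of the 4 genes that fell are shown to compare them for the motifs of the factors named above. They are the 250 bases upstream of the start sites in RefSeq on GRCm38.p6, read along the gene from 5′ to 3′, and capitals mark a match to one of the motifs searched. *Acsl1* has 2 start sites in this table, and the second is printed. *Acot3* also has 2, at 7 bases from each other, and the first is printed. The bases after both starts of *Acot3* were not found in GENCODE transcripts of this gene, and those of the other 9 genes were.
Acss2, chr2:155517793-155518042, plus strand: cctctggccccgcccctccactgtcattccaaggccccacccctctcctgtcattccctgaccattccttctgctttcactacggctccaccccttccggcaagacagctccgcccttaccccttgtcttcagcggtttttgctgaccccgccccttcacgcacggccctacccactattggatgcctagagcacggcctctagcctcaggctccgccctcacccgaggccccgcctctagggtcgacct
Acsl3, chr1:78657575-78657824, plus strand: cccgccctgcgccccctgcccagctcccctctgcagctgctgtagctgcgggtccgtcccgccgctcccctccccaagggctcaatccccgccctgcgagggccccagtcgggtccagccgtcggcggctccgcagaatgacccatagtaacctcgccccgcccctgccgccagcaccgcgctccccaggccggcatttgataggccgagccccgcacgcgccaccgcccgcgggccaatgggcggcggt
Acsl1, chr8:46490716-46490965, plus strand: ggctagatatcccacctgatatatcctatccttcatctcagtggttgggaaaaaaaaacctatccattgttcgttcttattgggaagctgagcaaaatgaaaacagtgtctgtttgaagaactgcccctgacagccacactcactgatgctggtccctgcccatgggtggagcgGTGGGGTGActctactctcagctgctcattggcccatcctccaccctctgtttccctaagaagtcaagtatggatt
Acot3, chr12:84051894-84052143, plus strand: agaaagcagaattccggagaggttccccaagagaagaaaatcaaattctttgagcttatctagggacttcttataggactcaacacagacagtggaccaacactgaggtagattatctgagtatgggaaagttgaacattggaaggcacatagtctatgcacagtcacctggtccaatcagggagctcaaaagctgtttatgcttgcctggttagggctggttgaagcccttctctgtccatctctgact
Both strands were searched for the PPAR response element, which is AGGTCA repeated after 1 base of any kind, for a single AGGTCA, for TCACNCCAC (the sterol response element bound by SREBP) and for CACGTG (the E-box). The sterol response element was found in 1.05% of the 32851 promoters of the table and, among the 10 genes, before the second start of *Acsl1* alone. The full PPAR response element was in 0.0335% of all promoters and in none of the 10 genes. The single AGGTCA, in 14.0% of all promoters, was found before the listed start sites of *Acot12* and *Acot4*, and the E-box, in 6.02%, before that of *Acot4*. Their windows were chr13:91741271-91741520 and chr12:84038129-84038378, so these start sites lie inside the gene coordinates given below. The single AGGTCA is part of the full element, and the matches printed here do not overlap each other. The stretches with these matches, with 10 bases on either side where the window allows, were as follows.
Acot12, AGGTCA on the minus strand: cgtaggacccTGACCTctcacctcct
Acot4, AGGTCA on the minus strand: ccccgaagcaTGACCTttggccg
Acot4 E-box: ttcacaacacCACGTGggagtggcga
A match describes these letters and not a bound site, and the window leaves out sites further away.

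*Acss2* (Entrez gene 60525; chromosome 2, 155518043 to 155562743) encodes the cytosolic acetyl-CoA synthetase. It stood at 164, 61.7 and 131 CPM in WT mice, against 50.5, 47.0 and 43.2 CPM among LKO mice. Every LKO mouse lay below every WT mouse, and the LKO mice were close to each other while WT mouse 2 was well below WT mice 1 and 3. The mean was 119 ± 52.3 CPM in WT, against 46.9 ± 3.66 CPM among LKO mice (SD, n = 3), and the log2 fold change was −1.34 (SE 0.32, adjusted p = 0.010, edgeR), or 2.54-fold lower. *Acss2* was called lower in all 13 other fits with 6 mice and in all 6 fits with 1 mouse left out.

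*Acsl3* (Entrez gene 74205; chromosome 1, 78657825 to 78707743) encodes a synthetase of the endoplasmic reticulum and of lipid droplets. Its levels were 26.7, 18.9 and 41.4 CPM in WT mice, against 8.57, 11.5 and 15.4 CPM among LKO mice, again without overlap. The mean fell from 29.0 ± 11.4 to 11.8 ± 3.43 CPM (SD, n = 3), and the log2 fold change was −1.29 (± 0.31, SE; edgeR adjusted p = 0.012). This gene, too, was called lower in all 13 other fits and with each mouse left out. Of its 3851 windows of 100 bases, the read length of the libraries, 108 were also found in *Utp14b*, whose log2 fold change was −1.24 (standard error 0.21).

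*Acsl1* (Entrez gene 14081; chromosome 8, 46471037 to 46536051) encodes the main long-chain synthetase of liver and is a known PPARα target. It was at 1336, 608 and 863 CPM in WT mice, against 614, 322 and 377 CPM among LKO mice. LKO mouse 1 was slightly above WT mouse 2, so the genotypes overlapped. The mean fell from 936 ± 370 to 438 ± 155 CPM (SD, n = 3), and the log2 fold change was −1.10 with an SE of 0.34 (edgeR, adjusted p = 0.034). The adjusted p-value from edgeR was 0.059 with an offset for gene length and 0.051 with upper-quartile scaling. It was also above 0.05 without WT mouse 1 (0.13), WT mouse 3 (0.074), LKO mouse 2 (0.11) or LKO mouse 3 (0.087), with log2 fold changes between −1.17 and −0.74. The call on *Acsl1* thus depended on single mice, whereas its direction was the same in every fit.

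*Acot3* (Entrez gene 171281; chromosome 12, 84052144 to 84060400) encodes a peroxisomal thioesterase for long-chain acyl-CoA. Reads numbered 1097, 372 and 850 in WT mice, against 182, 39 and 24 among LKO mice. After scaling they gave 14.7, 5.69 and 12.9 CPM in WT, against 4.13, 1.12 and 0.519 CPM among LKO mice, without overlap and with a wide spread among LKO mice. The mean fell from 11.1 ± 4.77 to 1.92 ± 1.94 CPM (SD, n = 3), and the log2 fold change was −2.52 (SE 0.68, adjusted p = 0.019, edgeR), the largest in size of the 10 genes. It was called in all 13 other fits, and the adjusted p-value from edgeR was above 0.05 without WT mouse 1 (0.059), WT mouse 3 (0.053) or LKO mouse 2 (0.079), at log2 fold changes of −2.26, −2.42 and −2.26. Without LKO mouse 1 the log2 fold change was −3.79.

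The other 6 genes did not pass the test after TMM scaling. *Acot12* (Entrez gene 74156; chromosome 13, 91741326 to 91786148) encodes the cytosolic thioesterase that releases acetate from acetyl-CoA, whereas ACSS2 joins acetate to coenzyme A. It was at 94.2, 87.7 and 110 CPM in WT mice, against 124, 114 and 158 CPM among LKO mice. All LKO mice were above all WT mice, but the log2 fold change of 0.44 (standard error 0.17) had an adjusted p = 0.076 from edgeR. This value went under 0.05 with protein-coding genes alone (0.043), upper-quartile scaling (0.037) and the offset for gene length (0.028). The sign turned to −0.41 with total counts and to −1.09 on the log2(TPM + 1) scale, so that no direction can be given for *Acot12* apart from the choice of scale.

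*Acsl4* (Entrez gene 50790; chromosome X, 142317993 to 142390802) encodes a synthetase that prefers arachidonic acid. Its WT mice were close together at 130, 123 and 126 CPM, while the LKO mice were spread over 102, 162 and 240 CPM, on both sides of the WT mice. The log2 fold change was 0.41 (± 0.28, SE; edgeR adjusted p = 0.27), and with total counts it was −0.46. Without LKO mouse 1 it was 0.67 (adjusted p = 0.038 from edgeR). *Acsl5* (Entrez gene 433256; chromosome 19, 55251861 to 55296628) encodes a synthetase of mitochondria and endoplasmic reticulum and was at 389, 231 and 307 CPM in WT, against 271, 212 and 167 CPM among LKO mice. These ranges overlapped, and the log2 fold change was −0.51 with an SE of 0.25 (edgeR, adjusted p = 0.13).

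*Acot1* (Entrez gene 26897; chromosome 12, 84009502 to 84017670) encodes a cytosolic thioesterase that is known to rise on fasting through PPARα. It was at 30.4, 10.8 and 10.2 CPM in WT, against 22.6, 10.5 and 28.3 CPM among LKO mice. Each genotype held both low and high mice, and the log2 fold change was 0.26 (SE 0.48, adjusted p = 0.70, edgeR). *Acot2* (Entrez gene 171210; chromosome 12, 83987861 to 83993877) encodes the mitochondrial counterpart of ACOT1 and was at 18.4, 6.71 and 7.24 CPM in WT, against 8.04, 4.67 and 7.78 CPM among LKO mice, with a log2 fold change of −0.66 (± 0.41, SE; edgeR adjusted p = 0.23). *Acot4* (Entrez gene 171282; chromosome 12, 84037254 to 84044723) encodes a peroxisomal thioesterase for succinyl-CoA and other dicarboxylic substrates. It was at 22.3, 14.5 and 21.5 CPM in WT, against 20.1, 12.4 and 10.1 CPM among LKO mice, and the log2 fold change was −0.45 with an SE of 0.28 (edgeR, adjusted p = 0.23). Without LKO mouse 1 the value for *Acot4* was −0.79 (adjusted p = 0.034 from edgeR).

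**Figure D1:**
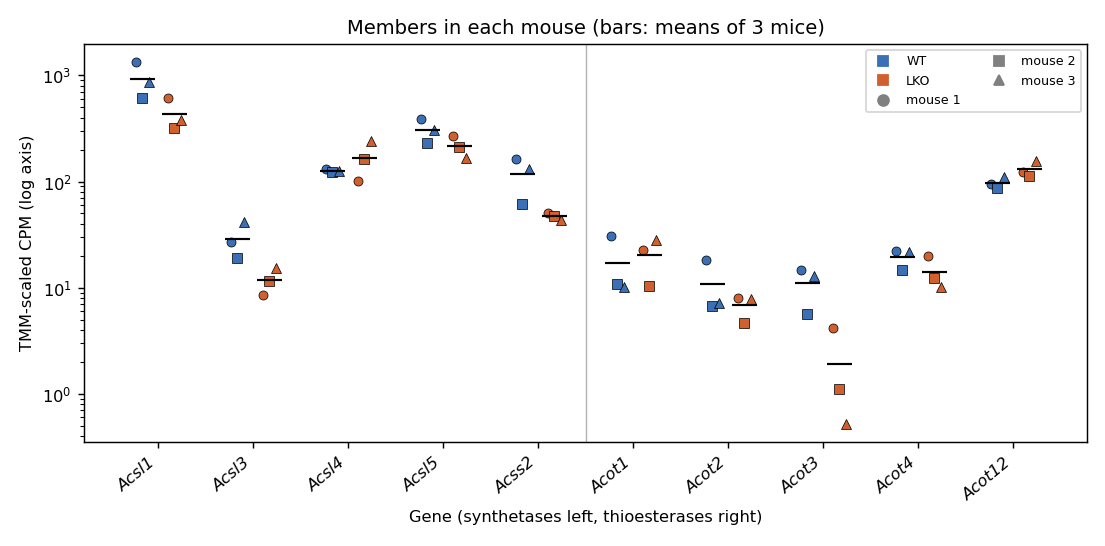
TMM-scaled CPM (log axis) of the 10 genes in each of 3 WT and 3 LKO mice, with bars at the means. The LKO mice lie below all WT mice for *Acsl3*, *Acss2* and *Acot3* and above them for *Acot12*, and the genotypes overlap for the other 6 genes.

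In CPM, the genotypes did not overlap for 4 of the 10 genes, against 54.0% of all genes tested. They were 3 genes that were lower (*Acsl3*, *Acss2* and *Acot3*) and 1 that was higher in LKO mice (*Acot12*), where the shares of all genes were 27.9% lower and 26.1% higher. WT mouse 1 had the highest CPM among WT mice for 8 of the 10 genes and WT mouse 2 the lowest for 9. Among LKO mice, mouse 1 was highest for 6 and lowest for 2 genes, mouse 3 highest for 4 and lowest for 4, and mouse 2 highest for 0 and lowest for 4, so no LKO mouse stood at one end throughout.

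TPM are scaled to the same sum in each mouse and adjust for gene length, so they serve to compare levels between genes. In WT mice, *Acsl1* was the highest of the 10 at 465 ± 181 TPM (SD, n = 3), followed by *Acsl5* at 233 ± 56.0 TPM, and their ranges did not overlap. *Acss2* at 81.5 ± 34.0 and *Acot12* at 63.1 ± 3.28 TPM came next and overlapped with each other. *Acsl4* was at 49.4 ± 2.61 TPM, below every value of *Acot12*. The lower 5 were *Acot1* at 21.6 ± 14.4, *Acot4* at 15.9 ± 2.89, *Acsl3* at 14.4 ± 4.76, *Acot2* at 9.61 ± 5.85 and *Acot3* at 8.05 ± 3.30 TPM, and each of these overlapped with the next. In LKO mice, *Acsl1* at 78.0 ± 35.2 and *Acsl5* at 56.7 ± 17.4 TPM remained in front and now overlapped, although *Acsl1* was above *Acsl5* in each of the 3 mice. *Acot12* at 30.0 ± 9.49 and *Acsl4* at 23.0 ± 11.7 TPM followed, and *Acss2* came after both at 11.2 ± 2.00 TPM without reaching the range of *Acsl4*. *Acot1* was at 9.36 ± 5.18, *Acot4* at 4.02 ± 1.76, *Acot2* at 2.17 ± 0.881, *Acsl3* at 2.11 ± 0.796 and *Acot3* at 0.502 ± 0.543 TPM. Between genotypes, the TPM of 9 of the 10 genes were lower in LKO mice without overlap, 0 were higher, and *Acot1* overlapped. Of all genes tested, 74.9% were lower and 2.98% higher in this way, so the count of 9 is read against that share and not as a result of its own.

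**Figure D2:**
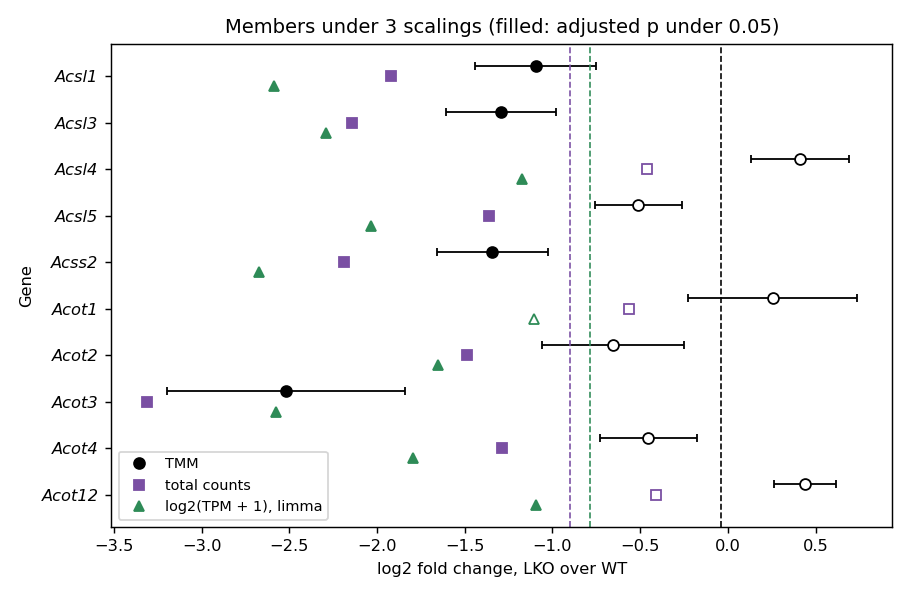
Log2 fold change of LKO over WT for the 10 genes with TMM (circles, with the standard error), total counts (squares) and limma on log2(TPM + 1) (triangles). Filled symbols have an adjusted p-value under 0.05, and each dashed line is the median of all genes tested under that scaling. *Acsl1*, *Acsl3*, *Acss2* and *Acot3* lie left of the median of their own scaling in all 3, while *Acsl4*, *Acot1* and *Acot12* change sides.

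Because the scale of the libraries moved with genotype, each log2 fold change was also set against the median of all genes in the same fit. Over the 13 other fits with 6 mice, this difference was −2.77 to −1.79 for *Acot3*, −1.89 to −1.09 for *Acss2*, −1.80 to −0.90 for *Acsl1* and −1.51 to −1.09 for *Acsl3*. It was also below 0 throughout for *Acsl5* (−1.24 to −0.37), *Acot4* (−1.01 to −0.33) and *Acot2* (−0.86 to −0.43), which were called in only 3 of these fits, those with total counts or TPM. For *Acsl4*, *Acot1* and *Acot12* it was above 0 in 12 of the 13 fits, up to 0.58, 0.37 and 0.59, and below 0 in the fit on log2(TPM + 1), at −0.39, −0.32 and −0.31.

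Shares within a family do not depend on the scale of a library. Of the summed TPM of the 5 synthetases, *Acsl1* made up 58.6%, 52.2% and 52.4% in WT mice, against 52.1%, 38.3% and 42.4% among LKO mice, lower in each LKO mouse by a small margin. By read counts without adjustment for length the genotypes overlapped. *Acsl5* took 28.1% ± 2.23 in WT, against 33.5% ± 4.88 among LKO mice (SD, n = 3), *Acss2* 9.47% ± 1.81 and 6.75% ± 0.893, and *Acsl3* 1.79% ± 0.681 and 1.29% ± 0.510, all with overlap. The share of *Acsl4* was 4.45%, 8.33% and 5.97% in WT, against 6.72%, 14.9% and 21.0% among LKO mice. It was highest in LKO mice 2 and 3, and LKO mouse 1 lay among the WT mice.

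Of the summed TPM of the 5 thioesterases, *Acot12* made up 42.2%, 61.7% and 60.4% in WT, against 59.5%, 72.2% and 66.6% among LKO mice. WT mouse 1, with the lowest share of *Acot12*, had the highest share of *Acot1*, 26.3%, against 10.9% to 23.3% in the other 5 mice. The share of *Acot3* was 7.51%, 4.46% and 7.99% in WT, against 2.23%, 0.827% and 0.242% among LKO mice, without overlap. The shares of *Acot2* (7.74% ± 3.11 in WT, 4.64% ± 0.619 in LKO) and *Acot4* (13.5% ± 1.40 and 9.11% ± 3.39) were also lower without overlap (SD, n = 3), and by read counts *Acot2* overlapped. In TPM the highest LKO mouse was at 5.30% for *Acot2* and the lowest WT mouse at 5.49%.

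**Figure D3:**
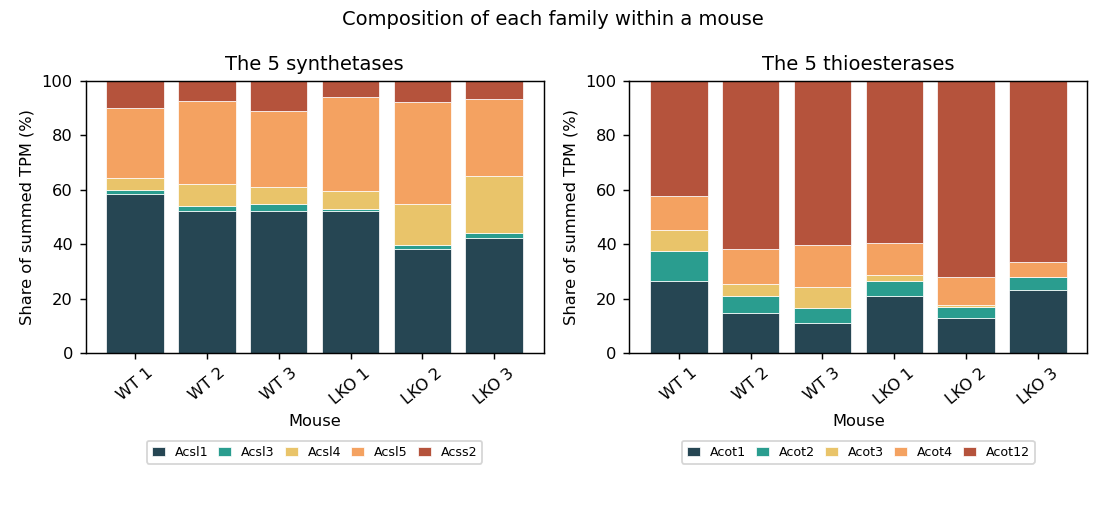
Share of each gene in the summed TPM of the 5 synthetases (left) and of the 5 thioesterases (right) in each mouse, in percent. The *Acsl4* segment reaches 14.9% and 21.0% in LKO mice 2 and 3, and the *Acot3* segment is at most 2.23% in LKO mice.

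*Acot2*, *Acot1*, *Acot4* and *Acot3* lie in this order within 1 cluster on chromosome 12, between 83987861 and 84060400. Parts of their sequences are found in other transcripts, so reads could be shared. Of the 2173 windows of 100 bases in *Acot1*, 21.9% were found exactly in transcripts of other genes, 359 of them in *Acot2*, and 104 in *Acot3*. The shares were 17.1% for *Acot2*, 16.6% for *Acot3* and 8.85% for *Acot4*, and 0 to 4.03% for the 6 genes outside the cluster. For *Acot2* all 359 shared windows were in *Acot1*. For *Acot3* 330 of 552 were in *Gm49366*, 214 in *4732463B04Rik* and 104 in *Acot1*, and for *Acot4* 539 of 540 were in *4732463B04Rik* and 21 in *Acot3*. The values of these 4 genes are uncertain to that extent. *Acot5*, another thioesterase, had counts of 57, 12 and 12 in WT, against 13, 0 and 0 among LKO mice and did not pass the filter, and *Acot6* had 59, 33 and 71 in WT, against 32, 3 and 12 among LKO mice (log2 fold change −1.11, standard error 0.64, adjusted p = 0.20 from edgeR).

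Genes of this cluster differed in how they compared between genotypes. The ratio of *Acot3* to *Acot4* in TPM was 0.594, 0.348 and 0.527 in WT mice, against 0.186, 0.0828 and 0.0452 among LKO mice, so each LKO mouse was below each WT mouse, and the mean of the log2 ratio differed by −2.43. The ratio of *Acot1* to *Acot2* was 2.33, 2.27 and 1.99 in WT, against 3.97, 3.17 and 5.13 among LKO mice. This ratio had a narrow range in WT mice even though *Acot1* itself varied more than 2-fold among them, and the log2 ratio was higher by 0.87 in LKO mice without overlap. The ratio of *Acot12* to *Acss2*, the enzymes that release and use acetate, was 0.539, 1.34 and 0.783 in WT, against 2.302, 2.26 and 3.41 among LKO mice. These pairs were chosen after their values were seen. Of all 45 pairs among the 10 genes, 22 (48.9%) did not overlap between genotypes, where 52.1% of all pairs of the 17166 genes with TPM above 0 in every mouse did not, so such a difference is not particular to these genes.

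**Figure D4:**
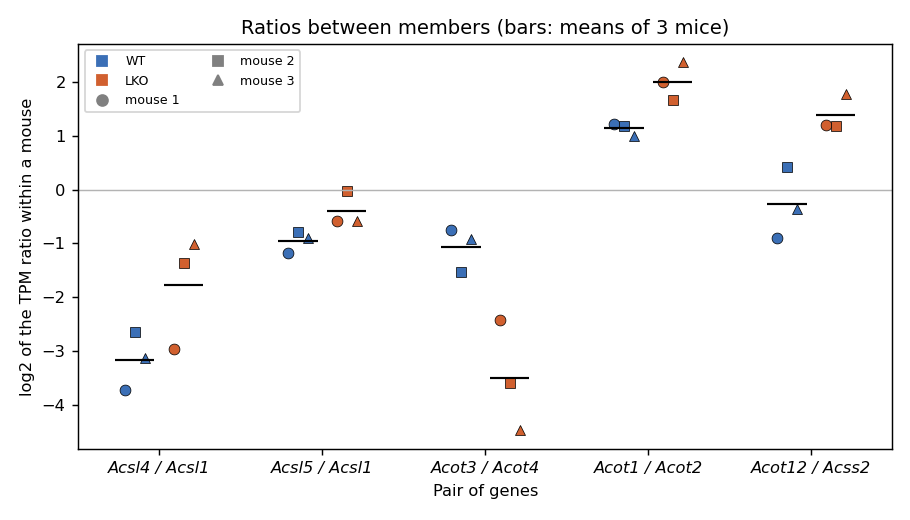
Log2 of the ratio of TPM between pairs of genes within each mouse, for 3 WT and 3 LKO mice, with bars at the means. The *Acot3* to *Acot4* ratio is lower and the *Acsl5* to *Acsl1*, *Acot1* to *Acot2* and *Acot12* to *Acss2* ratios are higher in every LKO mouse, and the *Acsl4* to *Acsl1* ratio overlaps.

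*Acot3* and *Acot12* had the lowest and the highest log2 fold change of the 10. The genes nearest to them were sought among 6785 genes whose mean was 10 CPM or more, without pseudogenes and without the 10 themselves. The measure was the root mean square difference over the 6 mice of log2(CPM + 1) relative to the WT mean. For *Acot3* these were *Ces1e* (0.236), *Acaa1b* (0.244) and *Ces1d* (0.370). *Ces1d* and *Ces1e* encode carboxylesterases, and *Acaa1b* a peroxisomal thiolase that acts in the shortening of fatty acids. *Acaa1b* was at 459 to 1103 CPM in WT and 129 to 298 CPM in LKO mice. For *Acot12* the nearest were *Atg4d* (0.0568), *Helb* (0.0630) and *Cdk13* (0.0702).

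The other genes of acyl-CoA metabolism were called in both directions. The counts of this list and of those below are read against 19.6% of all genes tested called higher and 20.5% lower after TMM. Of 20 other acyl-CoA synthetases 16 were tested, 4 were called higher and 5 lower, and the median log2 fold change was −0.41 against −0.04 for all genes. For the 10 genes described above, the medians were −1.10 for the synthetases and −0.45 for the thioesterases. The largest log2 fold change of this list was that of *Aacs*, acetoacetyl-CoA synthetase, which uses ketone bodies for lipid synthesis. It went from 111 ± 34.4 among WT to 5.09 ± 2.24 CPM among LKO mice (SD, n = 3), and the log2 fold change was −4.44 (SE 0.40, adjusted p = 2.9e-04, edgeR). *Acss3*, a mitochondrial synthetase for propionate, rose from 35.5 ± 11.5 to 185 ± 18.1 CPM (log2 fold change 2.38), and its rise remained with total counts (1.53) and on the log2(TPM + 1) scale (0.84). *Slc27a1* and *Slc27a2*, which encode fatty acid transport proteins with synthetase activity, had log2 fold changes of 1.84 and 1.34 after TMM. With total counts they were 0.996 (adjusted p = 0.020) and 0.48 (adjusted p = 0.063, both from edgeR), so that *Slc27a2* was no longer called. On the log2(TPM + 1) scale they were 0.16 and −0.20, and neither was called by limma.

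Of 15 other thioesterases 11 were tested, 5 were called higher and 4 lower, with a median of −0.40. *Hibch*, which hydrolyzes an intermediate of valine breakdown, rose from 55.0 ± 9.50 to 218 ± 23.4 CPM (SD, n = 3), and the log2 fold change was 1.98, or 1.12 with total counts. *Baat*, which joins bile acids to taurine or glycine, had a log2 fold change of 1.35 after TMM (adjusted p = 0.0046), 0.45 with total counts (adjusted p = 0.098, both from edgeR) and −0.26 on the log2(TPM + 1) scale. *Acot11* and *Acot7* fell, with log2 fold changes of −1.66 and −1.16, and were lower with total counts and TPM as well.

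Coenzyme A itself and the proteins that bind acyl-CoA made up a list of 21 genes, of which 20 were tested. After TMM, 1 was called higher and 4 lower, with a median of −0.26. *Slc5a6*, the transporter for pantothenate and other vitamins, fell from 9.15 ± 3.42 to 2.85 ± 0.370 CPM (SD, n = 3), with a log2 fold change of −1.68. *Vnn3* (−1.002) and *Vnn1* (0.59) encode pantetheinases, which break down pantetheine, and *Ppcdc* (−0.66) an enzyme of coenzyme A synthesis. The value for *Vnn1* turned to −0.28 with total counts, where it was not called. On the log2(TPM + 1) scale it was −0.91 and called lower (limma, adjusted p = 0.012), where the median of all genes was −0.79. The call for *Ppcdc* was kept in 1 of the 6 fits with a mouse left out, as was that for *Vnn1*.

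The 22 genes for the fates of acyl-CoA were all tested, and 11 were lower, 3 higher and 8 not called, with a median of −0.76. The largest changes were falls in the enzymes that make malonyl-CoA and fatty acids from acetyl-CoA. *Fasn*, fatty acid synthase, fell from 491 ± 268 to 29.6 ± 12.2 CPM (SD, n = 3), and the log2 fold change was −4.05 (± 0.55, SE; edgeR adjusted p = 9.5e-04). *Acly*, which makes cytosolic acetyl-CoA from citrate, had −2.99, and the acetyl-CoA carboxylases *Acaca* and *Acacb* −2.11 and −1.68. These 4 genes were called lower in every fit, including those with 1 mouse left out.

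Among 22 regulators of these genes, 3 were called higher and 7 lower, with a median of −0.35. *Srebf1*, which encodes SREBP1, fell from 118 ± 60.7 to 10.5 ± 1.39 CPM (SD, n = 3), and the log2 fold change was −3.50 with an SE of 0.36 (edgeR, adjusted p = 3.7e-04). *Insig1* and *Insig2* encode the proteins that hold SREBP in the endoplasmic reticulum, and they moved apart, with log2 fold changes of −3.54 and 3.80. Both were called in every fit with the same sign. *Ppargc1a*, a coactivator of PPARα, had 2.56 after TMM (standard error 0.67, adjusted p = 0.017), with total counts 1.73 (adjusted p = 0.054, both from edgeR), and its LKO mice were at 18.9, 18.0 and 109.8 CPM. The call was kept in 3 of 6 fits with a mouse left out. *Ppara* itself, which encodes PPARα, was called lower after TMM, with a log2 fold change of −1.12 (SE 0.24, adjusted p = 0.0069, edgeR). It was at 157, 181 and 288 CPM in WT, against 98.2, 105 and 83.5 CPM among LKO mice. *Ncor1*, which encodes a corepressor of PPARα, was also called lower, at −0.67 (SE 0.15, adjusted p = 0.0075, edgeR). Neither gene overlapped between genotypes in CPM.

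**Figure D5:**
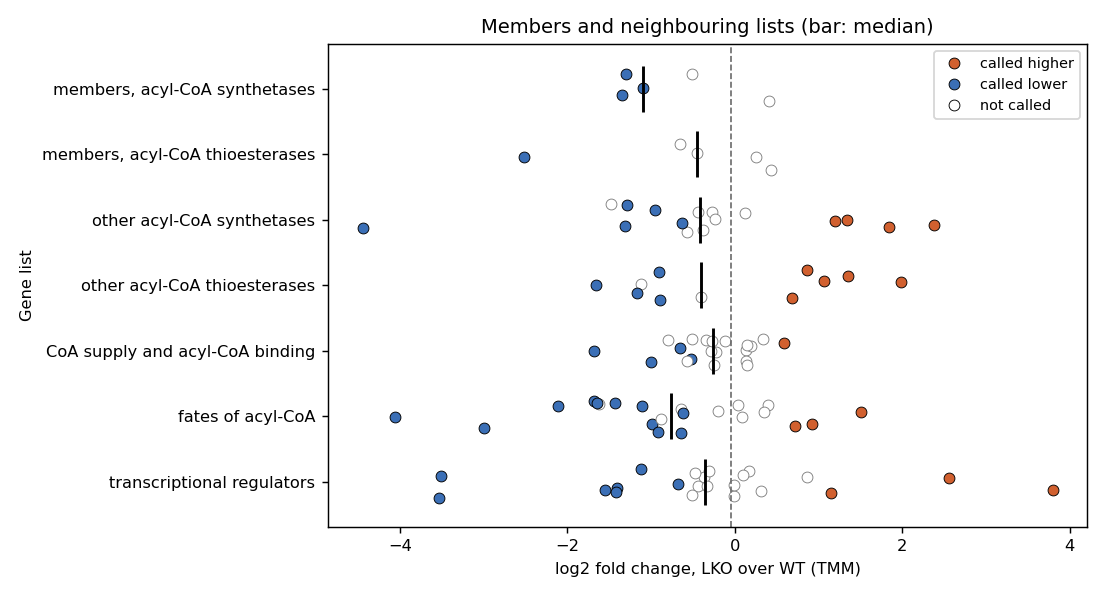
Log2 fold change of LKO over WT after TMM for each gene tested in the 2 groups described here and in 5 neighbouring lists, with the median of each list as a bar and that of all genes (−0.04) as a dashed line. Blue points were called lower, orange points higher, and open points not called. The lowest points are *Aacs* (−4.44) and *Fasn* (−4.05) and the highest is *Insig2* (3.80).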

How the data were processed

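Liver RNA of 3 WT and 3 LKO mice was sequenced by the authors with paired reads of 100 bases, 1 library per mouse, and groups follow the genotype in the labels. The labels name a kit that selects mRNA, the methods a total RNA kit with rRNA removal. The submitters' processing notes name HISAT2 2.1.0, Bowtie2 2.3.4.1 and StringTie 2.1.3b on mm10. The authors deposited whole-number read counts that were not normalized, together with FPKM and TPM. The counting's use of strand is not given in the sources used here.

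Members and gene lists were chosen with earlier results of these data known. Genes with more than 1 zero count among 6 mice were left out. TMM factors and two-sided quasi-likelihood tests came from edgeR 4.0.16, run under R 4.3.3, with genotype as the only term and Benjamini-Hochberg adjustment over all 18636 genes. A gene was called at an adjusted p under 0.05. The common biological coefficient of variation was 0.254. No gene set test was run. The authors' FPKM entered only the relative gene length (count over FPKM). Named genes were the 10 members, up to 4 called genes with the largest change per list and a mean of 1 CPM or more, and the 3 nearest patterns of the extreme members. *Ppara* and *Ncor1* were named in addition. In a simulation of this comparison with 14977 genes, 200 of which were given a log2 change of 2 in size, the test recovered 174 and called 9 unchanged genes. Its changes were few, went in both directions and came without the shift in library scale seen in these data. It therefore does not show how the test performs under that shift. RefSeq on GRCm38.p6, the assembly of mm10, gave coordinates for 45679 genes and promoters for all 10 members. Shared windows came from GENCODE transcripts on the same assembly. Alternatives were edgeR's exactTest, DESeq2 1.42.0, other scalings and filters, protein-coding genes alone, a gene length offset (lowess, span 0.3), the replicate number as a block, limma 3.58.1 on log2(TPM + 1) and log2(TPM + 0.1), and leaving out each mouse. Labels do not say how animals were caged or processed, and p-values measure the spread between these mice. Protein sequences were not used here.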

Additional observations from a re-analysis of the deposited data

How the results depend on the processing

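The count of 4 genes called lower was 7 when libraries were scaled by total counts and 9 with limma on log2(TPM + 1) and on log2(TPM + 0.1), and with 1 mouse left out it was 2 to 5. It was 2 without WT mouse 1, without WT mouse 3 or without LKO mouse 2. The count of 0 called higher was 1 with upper-quartile scaling, protein-coding genes alone, the gene length offset and the replicate block together with that offset, each time *Acot12*, and 0 to 1 with 1 mouse left out. Over all genes, 7476 were called, 13775 and 14002 with limma on log2(TPM + 1) and log2(TPM + 0.1), and 5617 to 7230 with 1 mouse left out. Of these calls, 49.0% were higher in LKO mice after TMM and 10.9% with total counts.

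The sign of *Acsl4*, *Acot1* and *Acot12* reversed in 3 fits each, to −0.46, −0.56 and −0.41 with total counts, −1.17, −1.10 and −1.09 with limma on log2(TPM + 1), and −1.21, −1.20 and −1.12 with limma on log2(TPM + 0.1). With 1 mouse left out *Acot1* was between −0.052 and 0.97, and was −0.022 without WT mouse 2, −0.030 without WT mouse 3 and −0.052 without LKO mouse 3. With total counts, the other synthetases had 2 higher and 10 lower calls, the other thioesterases 1 higher and 6 lower, the coenzyme A list 0 higher and 18 lower, the fates of acyl-CoA 0 higher and 17 lower, and the regulators 1 higher and 16 lower, where 6.26% of all genes were higher and 51.4% lower. The cause was not tested. The shares of the summed TPM moved by more than 1 SD in 9 of 40 comparisons, all 9 of them with shares of counts. Shares of counts per length could hardly move, because that length was taken from count over FPKM.

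Same-numbered mice are different animals, and their deviations from the group means correlated at 0.00, −0.04 and −0.06. These values gave no sign of a pairing by replicate number, but with 3 mice per genotype they cannot exclude shared handling. With the replicate number as a block, 6431 genes were called in place of 7476, and 4 of the 10 genes were called lower and 0 higher. The log2 fold change was −1.08 for *Acsl1*, −1.26 for *Acsl3*, −1.24 for *Acss2* and −2.82 for *Acot3*.

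With 3 mice per genotype, the standard error of a log2 fold change was 0.17 (*Acot12*) to 0.48 (*Acot1*) for the 6 genes not called, which does not show that they were equal between genotypes. Depth limits *Acot3* most, with as few as 24 counts in a mouse.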
